A study of Mus musculus with 4 samples.

Results

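The cells described here are those that the authors of the study named Infl_Mono, an interferon-rich group of monocytes, and they number 2475 of the 33368 CD45+ cells sequenced. They were chosen by that name alone. They came from 4 samples of melanomas of the YUMM1.7OVA line, which carries mutant Braf, lacks Cdkn2a and makes the antigen ovalbumin. Tumours were grown in Rag2-/- mice, which make no T or B cells of their own, so the T cells present stem from OT-1 CD8+ T cells, specific for ovalbumin, that every mouse received on day 7. Tumours were taken on day 10, 72 h later. The NTT tumour was made of cells naive to targeted therapy (clone Y1.7_NTT_3A6). The RTT tumour was made of cells that had become resistant to BRAF inhibition (clone Y1.7_RTT_2B12, kept on the BRAF inhibitor dabrafenib in culture, as were the lines edited from it). RTT_ROSA26 denotes resistant cells with a control guide, and RTT_PTGS12KO denotes resistant cells in which Ptgs1 and Ptgs2, the genes of both cyclooxygenases of prostaglandin synthesis, were knocked out. The edit sits in the cancer cells, which the CD45+ sort leaves out, so no value below checks it. Each group has 1 sample, made from 1 tumour according to the labels, while the legends of the study speak of pooled tumours, which was not settled here. Each sample is called a tumour below, and no test between tumours was possible. All intervals are 95% intervals of counting error only, and ranges over the 3 chip loads of the same cells show technical spread only.

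Classical monocytes leave the blood through CCR2, carry Ly6C, and turn into macrophages or other cells within a tissue. Type I interferons signal through IFNAR1 and IFNAR2 to transcription factors that bind interferon-stimulated response elements and switch on antiviral genes such as the Ifit and Oas families. Type II interferon, which T and NK cells make, signals through a receptor of its own and raises guanylate-binding proteins, MHC genes and the T cell attractant Cxcl9.

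The number of Infl_Mono cells was 1616 (NTT), 138 (RTT), 86 (RTT_ROSA26) and 635 (RTT_PTGS12KO), and runs of 4 values below keep this order. Among all sorted cells, NTT held 19.6% of them (interval 18.7 to 20.4), RTT 1.73% (1.46 to 2.04), RTT_ROSA26 1.26% (1.01 to 1.55) and RTT_PTGS12KO 6.17% (5.71 to 6.65). As a share of the cells named as monocytes, Infl_Mono made up 24.4% of NTT (23.4 to 25.5), 26.4% of RTT (22.7 to 30.4), 59.7% of RTT_ROSA26 (51.2 to 67.8) and 15.8% of RTT_PTGS12KO (14.7 to 17.0). The cluster was defined on genes that differ between these tumours, so its size is given as a description. The median share of mitochondrial UMIs per Infl_Mono cell was 1.42%, 2.57%, 2.57% and 2.14%, lowest in NTT. Median UMIs (unique molecules) per cell were 6787, 7452, 5961 and 7427, and the sums over Infl_Mono held 11827546, 1273530, 574982 and 5011892 UMIs. Values in RTT_ROSA26 therefore rest on few cells. Of 33270 barcode sequences, 98 occurred in more than 1 load, and 9 Infl_Mono cells carried such a sequence.

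Promoters of the genes that lead the cluster are shown because they hold the interferon-stimulated response element, whose core was searched as GAAA, any 2 bases, GAAA on either strand. RefSeq windows from 250 bases before to 50 bases after the transcription start (GRCm38.p6) were found for 8 of the 9 marker genes of the cluster, and those of 4 genes held the core. Each stretch below runs 5′ to 3′ along the strand of its gene, and capitals mark the core on either strand.
Ifit3 (chr19:34583343-34583446, plus strand): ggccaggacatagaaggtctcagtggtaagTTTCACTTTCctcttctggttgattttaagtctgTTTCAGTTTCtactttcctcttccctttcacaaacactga
Ifit1 (chr19:34640755-34640843, plus strand): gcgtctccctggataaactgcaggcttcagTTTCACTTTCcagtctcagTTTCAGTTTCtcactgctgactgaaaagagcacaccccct
Isg15 (chr4:156200845-156200926, minus strand): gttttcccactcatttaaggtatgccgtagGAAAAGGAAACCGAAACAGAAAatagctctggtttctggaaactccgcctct
Rsad2 (chr12:26456533-26456602, minus strand): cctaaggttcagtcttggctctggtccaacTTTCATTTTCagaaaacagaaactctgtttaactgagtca
Ifit3 and Ifit1 each held 2 copies, and Isg15 held 3 copies that overlap. The copies began between 156 and 66 bases before the start of these genes. The windows of Chil3, Ifit2, Oasl1 and Cmpk2 held no match. Of 27025 genes with a window, 3.99% held the core, against 15 of 27 genes of the type I interferon list and 12 of 18 of the type II interferon list. None of 13 genes with a window in the monocyte identity list held it. The second element, TTC, any 3 bases, GAA, known as the gamma-activated site, was in the windows of 9.55% of all genes, 3 of 27 type I genes and 8 of 18 type II genes. A match is a description of letters and not a measured binding site. Ifit1, Ifit2 and Ifit3 are neighbours on chromosome 19, and Rsad2 (26442746 to 26456452) and Cmpk2 (26469204 to 26479837) lie side by side on chromosome 12 on opposite strands.

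The 9 marker genes were higher in Infl_Mono than in Monocyte_1, the main monocyte cluster, in every tumour. Levels are UMIs per 1000000 UMIs of the summed cells (CPM). Ifit3, an antiviral protein that binds foreign RNA together with Ifit1, stood at 338 CPM (NTT), 490 (RTT), 376 (RTT_ROSA26) and 208 (RTT_PTGS12KO), against 50.8, 13.8, 50.9 and 23.1 in Monocyte_1. Rsad2, which encodes viperin, stood at 680, 1164, 1021 and 588 CPM against 168, 28.1, 29.1 and 101. Isg15, a ubiquitin-like protein that is attached to other proteins, stood at 1883, 1062, 897 and 1226 CPM against 622, 190, 390 and 371. Infl_Mono in RTT was thus highest for Ifit3 and Rsad2, and Infl_Mono in NTT was highest for Isg15. This order turned among the cells nearest Monocyte_1 (a split described below), where RTT held 137 CPM of Ifit3 and 357 CPM of Rsad2 against 336 and 685 CPM in NTT. The remaining interferon-responsive markers split in the same manner. Ifit1 (348, 684, 442 and 306 CPM), Ifit2 (305, 462, 200 and 258) and Cmpk2, a mitochondrial nucleotide kinase (114, 222, 183 and 124), were highest in RTT. Oasl1 (303, 165, 160 and 162) and Usp18, which removes Isg15 from proteins and damps IFNAR signalling (207, 137, 101 and 112), were highest in NTT. Chil3, a chitinase-like protein of monocytes that is in none of the interferon lists, stood at 551, 2115, 2671 and 2339 CPM against 87.0, 489, 861 and 229, so that NTT was lowest in both clusters. Cells entered the cluster partly for these genes, so their levels within it and against Monocyte_1 are a description, and what that choice does to differences between tumours was not tested.

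**Figure D1:**
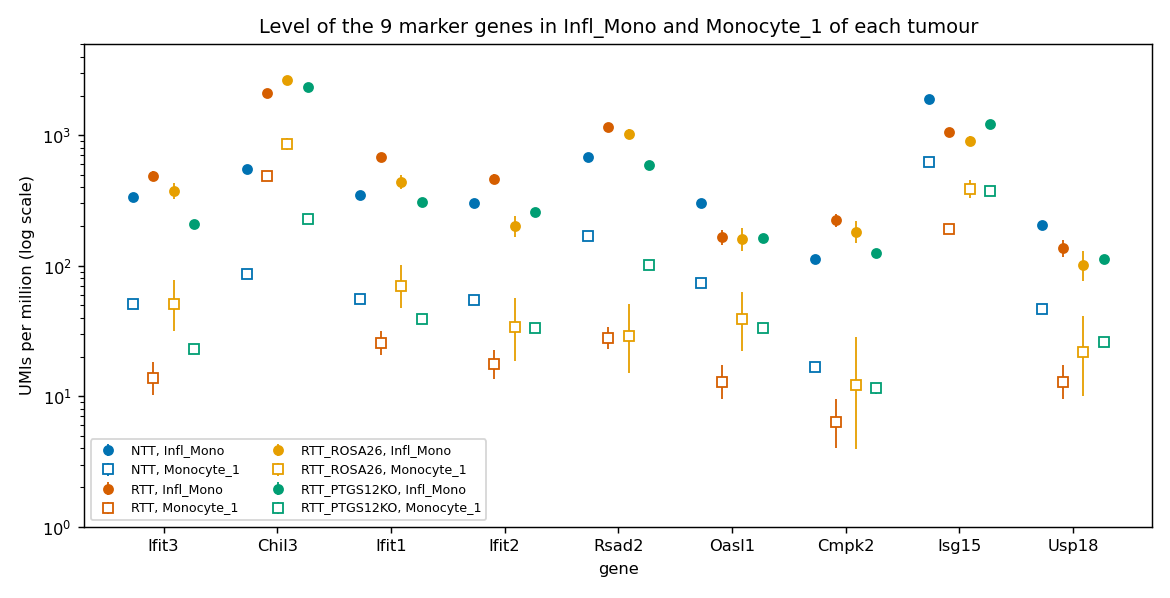
Level of the 9 marker genes in CPM on a log scale, with filled circles for Infl_Mono and open squares for Monocyte_1, coloured by tumour; bars are exact Poisson intervals. Every filled circle lies above the open square of the same tumour, and Monocyte_1 of RTT has the lowest level for Ifit3 (13.8), Rsad2 (28.1) and Isg15 (190).

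The authors clustered the cells on their most variable genes, so the ratios to Monocyte_1 that follow describe the cluster and do not test it. A difference over 2-fold in the sums counts as called below, for genes whose mean over both sums reached 20 CPM. In NTT, 1.68% of 4636 genes were called higher in Infl_Mono and 0.108% lower. The background was 5.15% higher and 1.11% lower in RTT, 5.7% and 6.68% in RTT_ROSA26, and 2.89% and 1.37% in RTT_PTGS12KO. With scaling factors from edgeR, the counts in RTT_ROSA26 changed from 260 higher and 305 lower to 328 and 218. Of the 33 genes of the type I interferon list, 31 were analysed here, and those that passed the minimum numbered 30 (NTT), 30 (RTT), 29 (RTT_ROSA26) and 28 (RTT_PTGS12KO). Of these, 23, 29, 21 and 24 were called higher, none was called lower, and the median log2 ratio was 1.45, 2.41, 1.30 and 1.58, against a median over all genes between -0.08 and 0.00. Of these genes 8 are markers of the cluster. Without them, an alternative chosen after seeing the data, 15 of 22, 21 of 22, 13 of 21 and 16 of 20 genes were called higher and none lower, with medians of 1.30, 1.92, 1.08 and 1.39. The highest ratio in RTT was that of Rsad2 at 5.32. Oasl1 stood at 12.9 CPM in Monocyte_1 of RTT and at 73.8 CPM in that of NTT.

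Called higher in all 4 tumours were 34 of 4076 genes (0.834%), and 0 were called lower in all 4. The 34 genes held the 9 markers. Of the type I list they held 16 genes, 8 of them markers, and among the others were the exonuclease Isg20, the RNA sensor Ddx58 (RIG-I) and the ubiquitin ligase Trim30a. They also held 3 of the Ifi200 family of DNA-binding proteins (Ifi207, Ifi209 and Mndal) and 4 Schlafen genes (Slfn4, Slfn5, Slfn8 and Slfn9). Cxcl10, which attracts T cells through CXCR3, and the monocyte genes Chil3 and Vcan (versican) were among them, as was Ifitm6. The other 9 were Adgre5, Cd69, Cdkn2d, Daxx, Fndc3a, Gm9733, Nt5c3, Parp14 and Samd9l, named after their values were seen. None of the 24 type II interferon genes, 8 MHC class II genes or 14 macrophage genes that passed the minimum in every tumour was among them. The Ifi200 and Schlafen genes are families of near-identical copies whose reads the counting could have split wrongly.

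The receptors and transducers of the interferon pathway had smaller ratios. In the list of interferon signalling (18 genes, of which 17, 16, 16 and 17 passed the minimum and 1, 3, 1 and 2 were called higher, Usp18 in every tumour), the median log2 ratio against Monocyte_1 was 0.25 (NTT), 0.26 (RTT), 0.20 (RTT_ROSA26) and 0.37 (RTT_PTGS12KO). Ifnar1 stood at 67.6, 69.9, 52.2 and 61.9 CPM in Infl_Mono and at 62.7, 57.0, 60.6 and 62.3 in Monocyte_1, so the clusters lay close in each tumour. Irf7, the transcription factor that amplifies type I interferon, was at 788, 391, 238 and 358 CPM against 454, 139, 204 and 175.

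Over all cells, genes that respond chiefly to type II interferon had medians nearer to that of all genes than the type I list had. An alternative chosen after seeing the data kept only the Infl_Mono cells nearest Monocyte_1 and set them against all Monocyte_1 cells. It gave 0.59 in RTT and 0.69 in RTT_ROSA26, where the sign turned. The median log2 ratio of the type II list against Monocyte_1 was 0.38 (NTT), 0.02 (RTT), -0.22 (RTT_ROSA26) and 0.45 (RTT_PTGS12KO), with 25, 24, 24 and 25 of 26 genes passing the minimum and ranges over the loads of 0.30 to 0.40, -0.07 to 0.03, -0.91 to 0.20 and 0.36 to 0.51. Only 1 of these genes was called higher, in RTT_PTGS12KO, and 3 in RTT, 6 in RTT_ROSA26 and 1 in RTT_PTGS12KO were called lower. Iigp1, an immunity-related GTPase, was higher than in Monocyte_1 in NTT (799 against 474 CPM) and RTT_PTGS12KO (938 against 567) and lower in RTT (339 against 439) and RTT_ROSA26 (304 against 376).

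MHC class II genes were lower in Infl_Mono of RTT, RTT_ROSA26 and, in fewer genes, RTT_PTGS12KO, while none was called in NTT. H2-Ab1, the beta chain of I-A, stood at 5541 CPM (NTT), 1333 (RTT), 830 (RTT_ROSA26) and 2259 (RTT_PTGS12KO), against 7005, 5262, 2898 and 4965 in Monocyte_1. The median log2 ratio of the class II list was -0.26 (NTT), -1.74 (RTT), -1.62 (RTT_ROSA26) and -0.61 (RTT_PTGS12KO). Called lower were 0 of 9, 7 of 8, 6 of 8 and 3 of 8 genes that passed the minimum. With only the Infl_Mono cells nearest Monocyte_1, against all Monocyte_1 cells, the medians were -0.30, -0.69, -0.63 and -0.52. Of the class II genes, 0, 1, 0 and 2 were called lower and 1 was called higher, in RTT_ROSA26.

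A minority of the monocyte genes were called higher. The median of the monocyte identity list was 0.52, 0.53, 0.20 and 0.79 on the log2 scale in the order NTT, RTT, RTT_ROSA26 and RTT_PTGS12KO, with 4 of 16, 5 of 16, 4 of 17 and 6 of 16 genes called higher, the marker Chil3 among them, and none lower. In RTT_ROSA26 the loads ranged from -0.11 to 0.38. Ly6c2 stood at 3499, 791, 1059 and 2893 CPM in Infl_Mono and at 2229, 539, 934 and 1342 CPM in Monocyte_1. A list of genes of neutrophil-like monocytes had medians of 0.15, 1.31, 1.22 and 1.52, with 1 of 10, 7 of 12, 7 of 12 and 7 of 12 genes called higher and 1 called lower, in RTT_ROSA26. Hp, which encodes haptoglobin, stood at 121, 185, 390 and 315 CPM against 67.7, 45.4, 97.0 and 60.2, and Lcn2, an iron-scavenging protein, at 10.4, 44.0, 36.5 and 48.1 against 7.9, 3.6, 4.9 and 4.1. The loads of RTT_ROSA26 ranged from 0.47 to 3.58 for the neutrophil-like list. Mpo and Camp, granule genes of neutrophil precursors, had 0 UMIs in Infl_Mono of every tumour. Prtn3, another granule gene of such precursors, stood at 15.8, 12.6, 38.3 and 50.3 CPM against 6.48, 4.68, 4.85 and 11.6. Markers of mature neutrophils, 8 genes, summed to 674, 1010, 357 and 857 CPM. Their median log2 ratio to Monocyte_1 was 0.27, 0.41, -0.79 and 1.2, with 0 of 5, 1 of 5, 0 of 6 and 3 of 5 called higher and 3 called lower, in RTT_ROSA26, and their part in these values was not tested.

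No gene was called lower in all 4 tumours. The lowest by their largest ratio were the chemokine Ccl5 (-0.83), Bola3 (-0.83), Ppp1r14b (-0.79), Mrpl12 (-0.77), Nhp2 (-0.62) and the macrophage elastase Mmp12 (-0.60). Ccl5 stood at 1432, 316, 95.7 and 391 CPM against 2545, 800, 274 and 817. Proliferation genes took a median of 0.035%, 0.027%, 0.024% and 0.027% of a cell's UMIs in Infl_Mono and 0.047%, 0.053%, 0.062% and 0.059% in Monocyte_1.

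**Figure D2:**
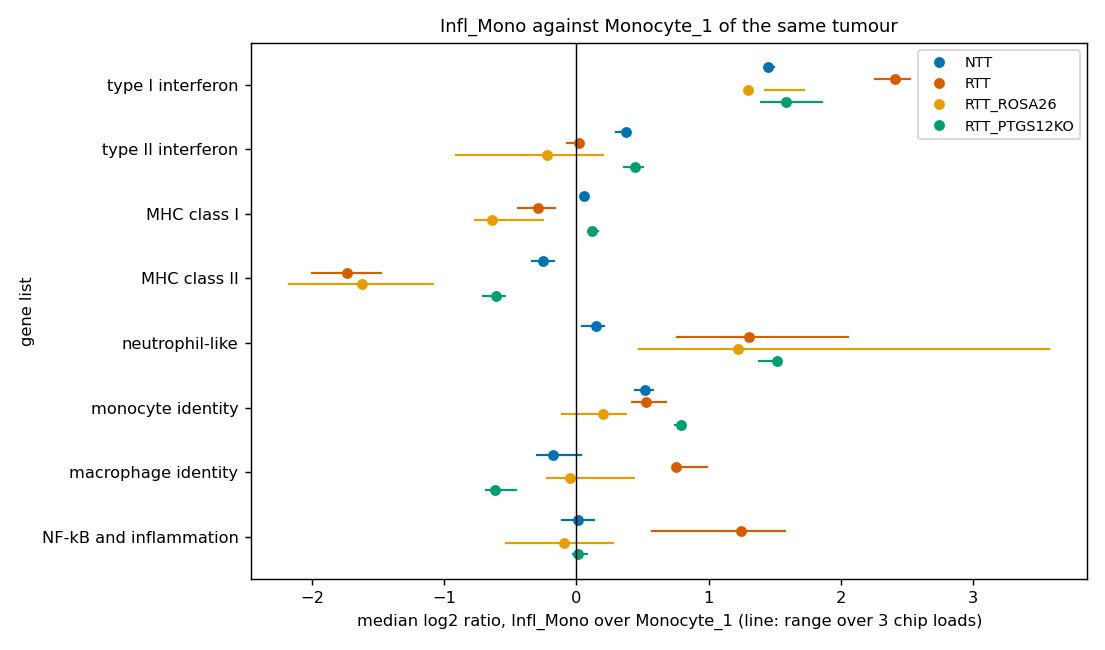
Median log2 ratio of 8 gene lists in Infl_Mono over Monocyte_1 of the same tumour; points are the value of the summed cells and lines the range over the 3 chip loads. Type I interferon genes lie at 1.30 or more in each tumour, MHC class II genes lie below 0, and macrophage identity genes lie at 0.76 in RTT and at -0.61 in RTT_PTGS12KO.

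Single cells differed widely within the cluster. Type I interferon genes took a median of 0.89% of a cell's UMIs (NTT), 0.54% (RTT), 0.31% (RTT_ROSA26) and 0.47% (RTT_PTGS12KO), against 0.33%, 0.13%, 0.18% and 0.17% in Monocyte_1. Of the Infl_Mono cells, 89.4% in NTT, 90.6% in RTT and 89.0% in RTT_PTGS12KO lay above the Monocyte_1 median of their tumour, but 61.6% did in RTT_ROSA26. There the central 80% of cells ran from 0.066% to 1.34%, and the 9 cells with most held 48.3% of all type I UMIs of the cluster. In NTT the 162 cells with most, of 1616, held 25.6%. The ranges of both clusters thus overlapped most in RTT_ROSA26.

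The share of cells with a UMI of Isg15, thinned to 3000 UMIs per cell, was 89.8% in NTT, 77.9% in RTT, 55.4% (44.1 to 66.3) in RTT_ROSA26 and 81.6% in RTT_PTGS12KO (unthinned 95.6%, 88.4%, 60.5% and 92.8%). Monocyte_1 gave 69.8%, 39.1%, 51.0% and 55.2%, and NK cells, used as a background for free RNA although they can respond to interferon, gave 19.6%. For Ifit3 the shares were 48.7%, 33.8%, 21.7% and 27.7% in Infl_Mono and 1.58% in NK cells. Median UMIs of NK cells were 9424. Left out as shallower were 46, 2, 3 and 10 Infl_Mono cells and 42 NK cells. Of the 216 Ifit3 UMIs of RTT_ROSA26, 38 lay in 1 cell, and without that cell its level was 310 CPM, below the 336 CPM of NTT without its own highest cell.

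**Figure D3:**
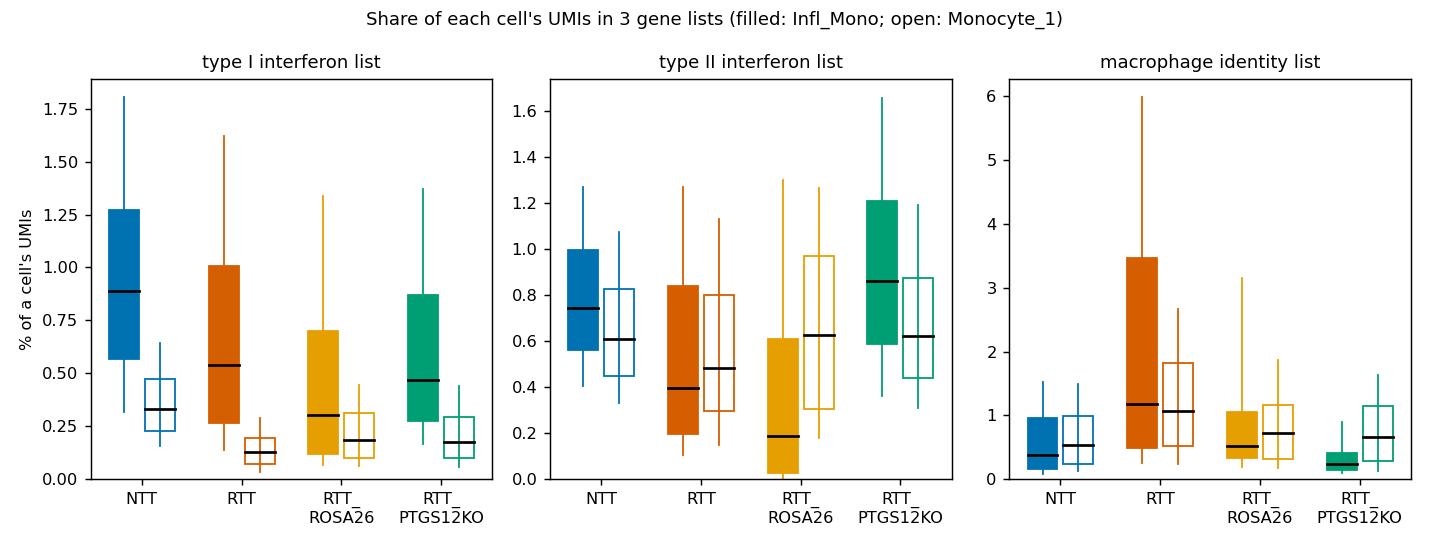
Percent of each cell's UMIs in the type I interferon, type II interferon and macrophage identity lists, by tumour; boxes run from the 25th to the 75th percentile, lines from the 10th to the 90th, black bars are medians, filled for Infl_Mono and open for Monocyte_1. Type I medians of Infl_Mono run from 0.31% in RTT_ROSA26 to 0.89% in NTT, and the macrophage list reaches 5.98% at the 90th percentile in RTT.

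To see what the cells are besides their interferon response, each was assigned to the most likely of the 16 other clusters by its counts of all genes outside the interferon lists, with 215 genes left out. In NTT, 95% (93.8 to 96.0) of Infl_Mono cells lay nearest Monocyte_1, and in RTT_PTGS12KO 90.2% (87.7 to 92.4) did. In RTT only 42.8% (34.4 to 51.5) did so, with 26.1% nearest the macrophage cluster TAM_Spp1 and 21.0% nearest TAM_C1q. In RTT_ROSA26, 34.9% (24.9 to 45.9) lay nearest Monocyte_1, 48.8% nearest TAM_Spp1 and 10.5% nearest TAM_C1q. Cells named Monocyte_1 lay nearest their own cluster in 95%, 66.1%, 70.4% and 79.0% of cases in the order NTT, RTT, RTT_ROSA26 and RTT_PTGS12KO. By this measure most Infl_Mono cells of RTT and RTT_ROSA26 lay nearest a cluster other than Monocyte_1. With profiles built from the own tumour alone, the share nearest Monocyte_1 was 52.9% in RTT and 32.6% in RTT_ROSA26, so for RTT the majority depended on the profiles. When the Infl_Mono profile itself, which contains the cells being assigned, was offered without interferon genes, 70.4%, 52.9%, 62.8% and 84.9% of cells lay nearest it and 25.7%, 4.35%, 2.33% and 7.72% nearest Monocyte_1.

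**Figure D4:**
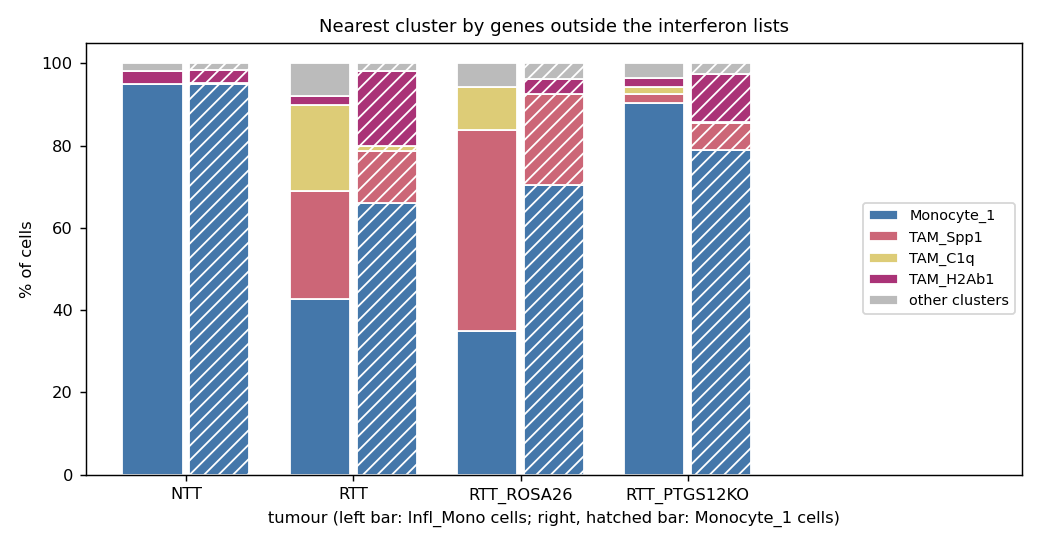
Percent of cells by nearest cluster, judged by genes outside the interferon lists, for Infl_Mono (left, plain bars, own cluster not offered) and Monocyte_1 (right, hatched bars) of each tumour. Nearest Monocyte_1 lay 95% of Infl_Mono cells in NTT and 90.2% in RTT_PTGS12KO, but 42.8% in RTT and 34.9% in RTT_ROSA26.

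The macrophage-nearest cells were not alike in these tumours. In NTT, 48 of 50 such cells lay nearest TAM_H2Ab1. In RTT, 36 lay nearest TAM_Spp1, 29 nearest TAM_C1q and 3 nearest TAM_H2Ab1. In RTT_PTGS12KO, 14 lay nearest TAM_H2Ab1, 14 nearest TAM_Spp1 and 11 nearest TAM_C1q. Macrophage and monocyte genes took part in the assignment, so their levels describe the split and do not test it. In RTT, 69 cells nearest a TAM cluster or Ctsk_Macro held 25278 CPM of Apoe, a lipid carrier of mature macrophages, 2302 CPM of the complement gene C1qa and 185 CPM of Ly6c2. The 59 RTT cells nearest Monocyte_1 held 3578, 547 and 1979 CPM. In RTT_ROSA26, the 51 macrophage-nearest cells held 9398 CPM of Apoe and 889 CPM of C1qa but also 714 CPM of Ly6c2, 2447 CPM of Chil3 and 615 CPM of Ccr2, the chemokine receptor of classical monocytes. Their monocyte identity genes took a median of 2.44% of UMIs, close to 2.61% in the 30 cells nearest Monocyte_1, and macrophage genes took 0.66% against 3.28% in the macrophage-nearest cells of RTT. H2-Ab1 stood at 227 CPM in the macrophage-nearest and 1863 CPM in the Monocyte_1-nearest cells of RTT_ROSA26. Apoe also lies in free RNA, with a UMI in 44.4% of thinned NK cells, and before thinning 709 NK cells came from NTT, 306 from RTT_PTGS12KO, 26 from RTT_ROSA26 and 13 from RTT. Its part in these values was not tested.

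Type I genes were present on both sides of this divide, with no single order. Per cell, the type I list took a median of 0.79%, 0.74%, 0.23% and 1.11% of UMIs in macrophage-nearest cells and 0.90%, 0.41%, 0.40% and 0.45% in Monocyte_1-nearest cells, so it was lower in the former in NTT and RTT_ROSA26 and higher in RTT and RTT_PTGS12KO. The summed level of Ifit3 was higher in macrophage-nearest cells throughout. It stood at 646 CPM in macrophage-nearest and 137 CPM in Monocyte_1-nearest cells of RTT, at 473 and 238 CPM in RTT_ROSA26, at 652 and 160 CPM in RTT_PTGS12KO and at 449 and 336 CPM in NTT. Cxcl9 ran the other way, at 83.6 and 2265 CPM in RTT, 55.4 and 1277 CPM in RTT_ROSA26, 580.5 and 2237 CPM in RTT_PTGS12KO and 667 and 965 CPM in NTT. Per cell, the type II list took a median of 0.21% and 0.90% of UMIs in macrophage-nearest and Monocyte_1-nearest cells of RTT, and 0.063% and 0.96% in those of RTT_ROSA26.

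Comparing the sums between tumours, 2.81% of 4625 genes were called higher and 3.03% lower in NTT over RTT. In RTT_PTGS12KO over RTT_ROSA26, 2.78% of 4457 genes were called higher and 2.04% lower. RTT_ROSA26 over RTT, both resistant and with Ptgs1 and Ptgs2 intact, gave 1.42% of 4566 genes higher and 3.96% lower, so a pair of tumours without the knockout gave counts of the same order. This pair has the smallest sums. With 10 instead of 1 CPM added before the ratio, its counts fell from 65 and 181 to 36 and 98. The lower count of RTT_PTGS12KO over RTT_ROSA26 fell from 91 to 54. NTT over RTT_PTGS12KO gave 1.77% of 4516 genes higher and 0.908% lower. The comparisons share tumours pairwise and are not independent of each other. Factors from edgeR shifted the median of all genes by 0.11 for Infl_Mono over Monocyte_1 in RTT_ROSA26, by 0.12 for NTT over RTT and by 0.13 for RTT_PTGS12KO over RTT_ROSA26 on the log2 scale, and turned 130 higher and 140 lower genes into 177 and 112, and 124 and 91 into 186 and 73.

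Between tumours, type I interferon genes were called in both directions. The median log2 ratio was 0.48 for NTT over RTT, with 3 of 31 genes called higher and 1 lower, where 2.81% and 3.03% of all genes were called. It was 0.15 for RTT_PTGS12KO over RTT_ROSA26 (1 of 31 higher and 1 lower, against 2.78% and 2.04%), -0.34 for RTT_ROSA26 over RTT (0 higher and 5 lower, against 1.42% and 3.96%) and 0.62 for NTT over RTT_PTGS12KO (5 higher and 0 lower, against 1.77% and 0.908%). Loads ranged over 0.43 to 0.46, 0.03 to 0.42, -0.68 to -0.14 and 0.44 to 0.78. Among the members called higher for NTT over RTT was Slfn4, at 182 CPM in NTT and 56.5 in RTT. Ifi44 stood at 193 CPM (NTT), 64.4 (RTT), 19.1 (RTT_ROSA26) and 26.5 (RTT_PTGS12KO), a log2 ratio of 2.81 (2.61 to 3.12) for NTT over RTT_PTGS12KO. With only the cells nearest Monocyte_1, an alternative chosen after seeing the data, the medians became 0.91 for NTT over RTT, -0.12 for RTT_PTGS12KO over RTT_ROSA26 and 0.29, reversed, for RTT_ROSA26 over RTT.

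Within Infl_Mono, NTT exceeded RTT in type II interferon genes (median 0.74, 10 of 25 genes called higher, 0 lower) and RTT_PTGS12KO exceeded RTT_ROSA26 (1.01, 13 of 25 higher, 0 lower). For RTT_ROSA26 over RTT the median was -0.22 (0 of 23 higher, 3 lower) and for NTT over RTT_PTGS12KO it was 0.09. Loads ranged over 0.59 to 1.00, 0.98 to 1.31, -0.47 to -0.13 and 0.07 to 0.12. Gbp2b stood at 174 CPM (NTT), 16.5 (RTT), 6.96 (RTT_ROSA26) and 52.5 (RTT_PTGS12KO), and its reads may be split with its close relative Gbp2 (1029, 1253, 965 and 1856 CPM). Serpina3g, a protease inhibitor, stood at 175, 46.3, 13.9 and 186 CPM. Nos2, which makes nitric oxide, stood at 209, 132, 19.1 and 126 CPM. Restricted to the cells nearest Monocyte_1, the median was 0.22 for NTT over RTT and 0.17 for RTT_PTGS12KO over RTT_ROSA26. Such cells numbered 59 in RTT and only 30 in RTT_ROSA26. The split left out the type II list but used most MHC class II genes, which type II interferon also raises. It is therefore not independent of the type II response. The type II medians were thus smaller among the Infl_Mono cells nearest Monocyte_1. The share of such cells also differed between these tumours, and its part in the difference was not tested.

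MHC genes had positive medians in the first pair of comparisons over all cells, NTT over RTT and RTT_PTGS12KO over RTT_ROSA26. The class II median was 1.85 for NTT over RTT and 1.41 for RTT_PTGS12KO over RTT_ROSA26, with 6 of 8 genes called higher in each. It was -0.55 for RTT_ROSA26 over RTT and 0.82 for NTT over RTT_PTGS12KO (4 of 8 higher). With only the cells nearest Monocyte_1, an alternative chosen after seeing the data in which most class II genes took part in the assignment, the median was 0.79 for NTT over RTT (1 of 8 higher) and 0.41 for RTT_PTGS12KO over RTT_ROSA26 (0 of 8 higher), and H2-Ab1 stood at 5552 CPM (NTT), 2913 (RTT), 1863 (RTT_ROSA26) and 2363 (RTT_PTGS12KO). For class I over all cells the medians were 0.84, 0.85, -0.44 and 0.41. H2-K1, a classical class I chain, stood at 3439, 1592, 1094 and 2163 CPM in NTT, RTT, RTT_ROSA26 and RTT_PTGS12KO. H2-Q7, a non-classical chain with near-identical relatives, stood at 647, 119, 52.2 and 260 CPM.

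Macrophage identity genes were lower in NTT than in RTT, in RTT_PTGS12KO than in RTT_ROSA26 and in RTT_ROSA26 than in RTT. Their median was -1.56 for NTT over RTT (12 of 17 called lower), -1.22 for RTT_PTGS12KO over RTT_ROSA26 (9 of 16 lower), -0.82 for RTT_ROSA26 over RTT (7 of 18 lower) and 0.27 for NTT over RTT_PTGS12KO. Apoe stood at 1089 CPM (NTT), 17616 (RTT), 7082 (RTT_ROSA26) and 1548 (RTT_PTGS12KO). Among the 10 lowest ratios for NTT over RTT were Fcrls (9.64 against 261 CPM), the folate receptor Folr2 (6.26 against 111) and Spp1, which encodes osteopontin (160 against 2848). The mannose receptor Mrc1 stood at 43.8, 444, 217 and 59.5 CPM. RTT_ROSA26 had 51 of 86 macrophage-nearest cells and RTT 69 of 138, and the part of this share in the differences was not tested. Apoe was higher in RTT than in NTT among cells nearest Monocyte_1 (3578 against 861 CPM) and macrophage-nearest cells (25278 against 6794 CPM). C1qa was lower in RTT on both sides (547 against 793 and 2302 against 3216 CPM). The macrophage-nearest cells of NTT and RTT lay mostly nearest different TAM clusters.

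**Figure D5:**
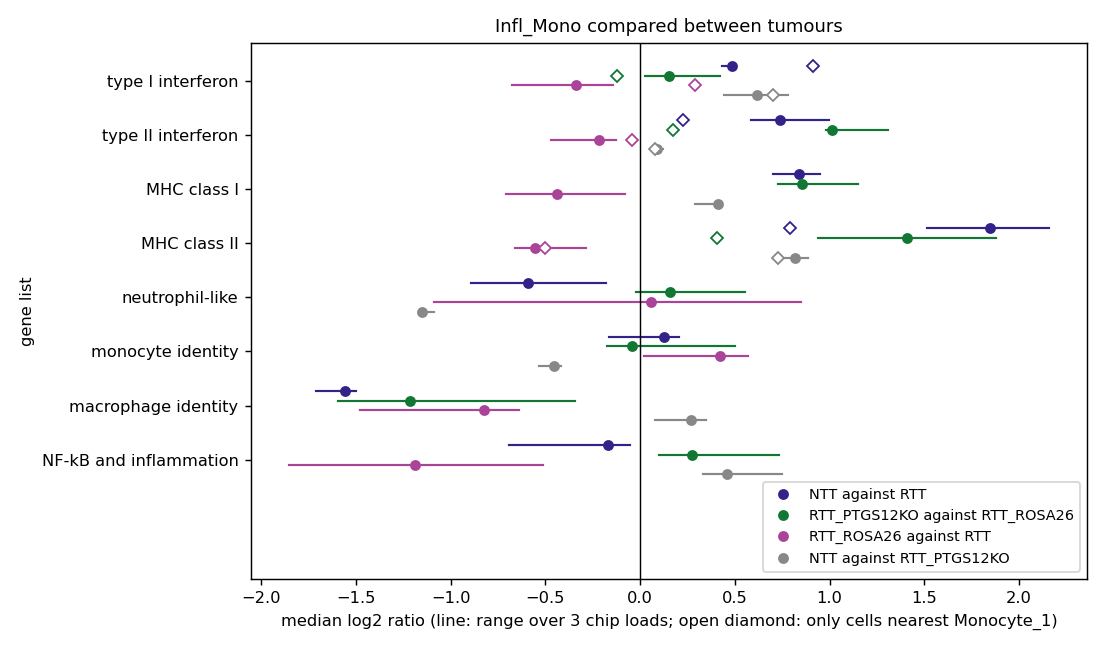
Median log2 ratio of 8 gene lists for 4 comparisons between tumours within Infl_Mono; points are the value of all cells, lines the range over the 3 chip loads, and open diamonds, for the type I, type II and MHC class II lists, the value with only the cells nearest Monocyte_1. Type II interferon lies at 0.74 and 1.01 for NTT over RTT and RTT_PTGS12KO over RTT_ROSA26, and at 0.22 and 0.17 with only the cells nearest Monocyte_1.

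NTT and RTT_PTGS12KO, in which nearly all cells lay nearest Monocyte_1, still differed from each other. Neutrophil-like genes were lower in NTT (median -1.15, 6 of 11 called lower, loads -1.13 to -1.09), among them Hp, at 121 against 315 CPM, and Lrg1, at 5.24 against 27.1 CPM. Monocyte identity genes had a median of -0.46, with 4 of 16 called lower. Chil3, at 551 against 2339 CPM, had a log2 ratio of -2.08 (-2.13 to -2.04), and Vcan, at 115 against 401 CPM, one of -1.80. Idi1 and Cyp51, enzymes of sterol synthesis, stood at 8.96 and 12.3 CPM in NTT and at 54.7 and 55.1 CPM in RTT_PTGS12KO. Higher in NTT were Ccl24 (56.1 against 5.79 CPM), Mmp12 (286 against 44.5), the integrin Itgax (95.1 against 19) and Il7r, the interleukin-7 receptor (108 against 24.5).

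Inflammatory genes were lower in RTT_ROSA26 than in RTT. The list of NF-kB targets and inflammatory mediators had a median of -1.19 (8 of 15 called lower, loads -1.85 to -0.51), against -0.17 for NTT over RTT. The neutrophil attractant Cxcl2 stood at 2795 CPM (NTT), 4065 (RTT), 1256 (RTT_ROSA26) and 1452 (RTT_PTGS12KO), and Tnf at 112, 255, 95.7 and 69 CPM. Cxcl1 stood at 30.1, 210, 5.22 and 8.38 CPM, but in RTT its UMIs came from 22 cells and 89 of 267 from 1 cell. Inhba, the activin A subunit, stood at 280, 112, 15.7 and 188 CPM, lowest in RTT_ROSA26.

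Genes through which monocytes act on T cells differed in pattern. Cxcl10 stood at 2044 CPM (loads 1941 to 2102) (NTT), 1871 (1094 to 2811) (RTT), 2957 (2534 to 3511) (RTT_ROSA26) and 2410.5 (2317 to 2513) (RTT_PTGS12KO). It was the only chemokine of the list called higher than Monocyte_1 in all 4 tumours, at log2 ratios of 1.46, 1.68, 1.50 and 1.52. The share of thinned cells with a UMI of Cxcl10 was 70.9%, 53.7%, 43.4% and 65.3%, and 11.6% in NK cells, so RTT_ROSA26 had the highest sum with the lowest share of cells. Cxcl9 stood at 951, 795, 456 and 2029 CPM in Infl_Mono and at 1084, 1509, 2440 and 1610 CPM in Monocyte_1. Over all cells, Infl_Mono exceeded Monocyte_1 for it only in RTT_PTGS12KO, with a log2 ratio of 0.33. Among the Infl_Mono cells nearest Monocyte_1, Cxcl9 in RTT stood at 2265 CPM, also above all Monocyte_1 cells, and RTT_PTGS12KO held 2237 CPM. Those of RTT numbered 59. Over all 138 Infl_Mono cells of RTT, 37 held a Cxcl9 UMI, and 234 of 1013 UMIs lay in 1 cell. A UMI of Cxcl9 was found in 44.3%, 19.1%, 18.1% and 53.0% of thinned cells, and in 6.52% of NK cells. Il15, a survival factor of NK and CD8+ T cells, stood at 68.8, 25.9, 47.0 and 44.9 CPM against 22.5, 5.51, 9.70 and 13.8 in Monocyte_1. Cd274, which encodes PD-L1, stood at 596, 248, 209 and 321 CPM, close to Monocyte_1 (526, 253, 189 and 306).

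Of 14 genes in the prostaglandin list, 4 to 6 passed the minimum against Monocyte_1. Ptgs2 stood at 571, 561, 167 and 460 CPM in Infl_Mono and 692, 371, 456 and 563 in Monocyte_1, lowest in RTT_ROSA26 within Infl_Mono and lowest in RTT within Monocyte_1. The receptors Ptger2 (8.37, 8.64, 6.96 and 5.79 CPM) and Ptger4 (15.9, 18.8, 20.9 and 13.2 CPM) had intervals of the log2 ratio that held 0 in each of the 4 comparisons. Hpgd, which breaks down prostaglandins, stood at 6.51, 3.93, 50.4 and 11.2 CPM. In RTT_ROSA26 its 29 UMIs came from 11 cells. Hpgds, which makes prostaglandin D, stood at 9.64, 77.7, 17.4 and 8.38 CPM against 7.90, 15.7, 19.4 and 7.81 in Monocyte_1, highest in Infl_Mono of RTT.

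Some of the highest ratios came from single cells. Ifnb1, which encodes interferon beta, stood at 93.9 CPM in RTT_ROSA26, where 52 of 54 UMIs lay in 1 cell, and at 0.085, 1.57 and 2.19 CPM in NTT, RTT and RTT_PTGS12KO. Without that cell it stood at 3.48 CPM. Its UMIs were found in 1 of 1616, 1 of 138, 2 of 86 and 5 of 635 Infl_Mono cells. Cd209f stood at 92.2 CPM in RTT_ROSA26, with 53 UMIs in 1 cell. The haemoglobin gene Hbb-bs headed NTT over RTT (125 against 3.93 CPM) with 1440 of 1483 UMIs in 1 cell. These values describe that cell and not the cluster.

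TAM_H2Ab1, a macrophage cluster rich in MHC class II, had enough cells for comparison in NTT (192), RTT (63) and RTT_PTGS12KO (364). Against it, the type I list in Infl_Mono had medians of 1.06, 1.91 and 2.01 on the log2 scale and the monocyte identity list 2.43, 2.53 and 2.07. Macrophage genes were at -1.74 in NTT, -0.20 in RTT and -2.06 in RTT_PTGS12KO. MHC class II genes were at 0.04, -1.35 and -0.30. In RTT, the ratios of the 18 macrophage genes ran from -1.2 to 0.93, and Apoe had a log2 ratio of 0.00.

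Markers of other cell types differed in level. NK markers (8 genes) summed to between 11 and 17.2 CPM over the tumours and T cell markers (8 genes) to between 0 and 3.39 CPM, with all 8 at 0 in RTT_ROSA26. Melanoma markers (7 genes) summed to between 13.3 and 23.2 CPM, and 5 or 6 of the 7 were at 0. Markers of cDC1s summed to between 397 and 831 CPM, a list that holds Irf8, which these monocytes also express (326, 225, 250 and 357 CPM). Markers of cDC2s (8 genes) summed to between 472 and 536 CPM, a list that holds Itgax, and those of pDCs (7 genes) to between 77.6 and 161 CPM. Markers of stroma summed to between 5.92 and 20.4 CPM.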

How the data were processed

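CD45+ live cells of 4 tumour samples were tagged by sample, mixed, and run in 3 loads of a droplet chip (3′ gene expression). The authors deposited 1 matrix of UMI counts, with a sample and cell type name for each cell. According to the study's methods and processing notes, reads were counted with Cell Ranger against mm10, cells were kept above 1000 genes, below 15% UMIs of mitochondrial genes and below 40% of ribosomal ones, and clusters were named in Seurat 4.3.0 after Harmony integration. Clusters were named partly on the genes compared here. The members and gene lists were chosen with earlier results of these data known.

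Counts of cells named Infl_Mono were summed per tumour and scaled to CPM, and log2 ratios used CPM + 1 (numpy 2.4.6, scipy 1.17.1, Python 3.11.15). With 1 sample per group no p-value was computed. Intervals are exact Poisson, Clopper-Pearson or conditional binomial intervals. Nearest clusters were found by multinomial likelihood on summed profiles, with 0.5 UMIs added to each gene. Named genes were the 9 markers, 34 chosen genes, list members, and the 10 highest and 10 lowest ratios of each comparison where the higher sum reached 50 CPM. The steps were tested on simulated data. Doublets within a sample were not called. Alternatives were a stricter cell filter (over 1500 genes, under 10% mitochondrial UMIs), removal of the 5% of cells with most UMIs, CPM + 10, no minimum CPM, TMM factors (edgeR 4.0.16) and profiles of the own sample. Restriction to cells nearest Monocyte_1, removal of the top cell of a gene and a type I list without the markers were added after seeing the data. That restriction applied to Infl_Mono only, and Monocyte_1 kept all its cells. Figures were drawn with matplotlib 3.10.9. Promoter windows came from RefSeq and gene positions from GENCODE M21, both on GRCm38, the build of mm10. Mx1, Mx2 and Oas1b were not analysed here. Some list members are not reported here.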

Additional observations from a re-analysis of the deposited data

Results flagged for a closer look

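In 3 lists with at least 10 genes past the minimum in each of the 4 tumours, the median log2 ratio of Infl_Mono against Monocyte_1 lay above 0 in 1 tumour or more and below 0 in another, each by more than 1 SD over the chip loads. With 1 sample per tumour the difference itself was not tested. For macrophage identity genes it was -0.18 (NTT), 0.76 (RTT), -0.046 (RTT_ROSA26) and -0.61 (RTT_PTGS12KO). For MHC class I genes it was 0.057 (NTT), -0.29 (RTT), -0.64 (RTT_ROSA26) and 0.12 (RTT_PTGS12KO). For the list of suppressive and hypoxia genes it was -0.14 (NTT), 0.26 (RTT), -0.42 (RTT_ROSA26) and -0.58 (RTT_PTGS12KO).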

How the results depend on the processing

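No test between groups was possible because every group holds a single sample. Infl_Mono against Monocyte_1 was given as a ratio within each sample and not tested, because the clusters were defined on these cells. Depth limits RTT_ROSA26 most, where 3 UMIs amount to 5.22 CPM. Causes of the changes below were not tested. The comparisons are A (NTT over RTT), B (RTT_PTGS12KO over RTT_ROSA26), C (RTT_ROSA26 over RTT) and D (NTT over RTT_PTGS12KO). For counts of called genes, 65 values stayed within 1.5 times and 25 did not. Without a minimum CPM, the counts higher and lower became 741 and 793 (A), 1173 and 1146 (B), 1162 and 1675 (C) and 300 and 154 (D). Against Monocyte_1 they became 142 and 19 in NTT, 887 and 791 in RTT, 2164 and 1986 in RTT_ROSA26, 273 and 346 in RTT_PTGS12KO, and 66 and 3 in all 4 tumours. CPM + 10 gave 54 lower (B), 36 higher and 98 lower (C), and against Monocyte_1 2 lower (NTT), 20 (RTT), 172 (RTT_ROSA26) and 35 (RTT_PTGS12KO).

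For the medians of the type I, type II and MHC class II lists, 122 values stayed within the spread over loads, 29 moved and 1 reversed from a value beyond 1 SD over the loads. Of the others, 3 changed sign from a value within that SD: type I in B (0.15 to -0.12) and type II against Monocyte_1 in RTT_ROSA26 (-0.22 to 0.69) with only the cells nearest Monocyte_1, and type II in RTT (0.02 to -0.013) with TMM factors. With only the cells nearest Monocyte_1, type I gave 0.91 (A) and a reversed 0.29 (C), and 1.94 against Monocyte_1 in RTT, while type II gave 0.22 (A) and 0.17 (B), and 0.59 against Monocyte_1 in RTT. MHC class II gave 0.79 (A), 0.41 (B) and 0.73 (D), and against Monocyte_1 -0.69 in RTT, -0.63 in RTT_ROSA26 and -0.52 in RTT_PTGS12KO. Without the 9 markers, type I gave 0.53 (A), and 1.30 in NTT, 1.92 in RTT and 1.08 in RTT_ROSA26 against Monocyte_1. For type I, the stricter filter gave 0.44 (A) and 1.50 against Monocyte_1 in RTT_ROSA26. CPM + 10 gave 0.45 (A), 1.29 in NTT and 1.99 in RTT, no minimum CPM 1.52 in NTT, and TMM factors 0.60 (A) and 1.59 in NTT. For type II, TMM factors gave 0.049 (D), 0.45 in NTT and 0.53 in RTT_PTGS12KO, and for MHC class II -0.52 in RTT_PTGS12KO. The stricter filter put Infl_Mono at 0.965% of cells in RTT_ROSA26. Profiles of the own sample put 92.1% of cells in NTT and 52.9% in RTT nearest Monocyte_1. Of the named genes, the stricter filter reversed Chil3 to 0.035 (B) and Rsad2 to 0.032 (C), and leaving out the cell with most UMIs reversed Saa3 to -0.63 (C) and Hbb-bs to -0.42 (D).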
